A study of Mus musculus with 18 samples.

Results

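Lingo1, Lingo2, Lingo3, Lingo4, Islr, Islr2, Lrrtm1, Lrrtm2, Lrrtm3 and Lrrtm4 encode neuronal or related proteins with extracellular leucine-rich repeats, and the repressive histone mark H3K27me3 was read at these 10 genes of the 20665 protein-coding autosomal genes measured. Each gene was taken with 2.5 kb on either side (GRCm38/mm10), and every interval called in a library that overlapped this window was counted. The genes were chosen by measured values of these same libraries: Lingo1 by intervals called in WT and not in KO at E12.5, Lrrtm1 by the same at E15.5, and Islr2 by its counts at both stages, each with its family. Values in those contrasts are therefore given as descriptions with no test.

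Bulk CUT&Tag, in which an antibody directs a transposase to the DNA around the mark, was run on the medial ganglionic eminence (MGE), where many interneurons of the forebrain are born. WT and Ezh2 KO embryos were compared at E12.5 and E15.5, with 3 libraries in each of the 4 groups. The KO samples are labelled Nkx2.1-CreC/+;Ezh2;Ai9F/+ and the others only WT. The parents given for WT and KO alike were Nkx2.1-CreC/C;Ezh2F/+ (males) and Ai9F/F;Ezh2F/+ (females), a cross that passes the Cre and the Ai9 reporter to every embryo, and the Ezh2 alleles of each sample are not spelled out. Cre is driven by Nkx2.1, which limits the deletion to cells of that lineage. The entire MGE was taken at E12.5, whereas at E15.5 the Tom+ MGE was dissected under fluorescence, so stage and dissection cannot be told apart. Embryos of 1 genotype were pooled where applicable. The labels number the libraries as biological replicates without naming litters, so a p-value measures the spread between these libraries only. In tissue, fewer marked cells and less mark per cell cannot be told apart.

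H3K27me3 is placed by Polycomb repressive complex 2, of which Ezh2 is a catalytic subunit, and typically sits over CG-rich starts of silent developmental genes. Lingo1 is a co-receptor of the Nogo receptor complex that limits axon growth and myelination, and Lingo2 to Lingo4 are its paralogs. Islr2, also called Linx, takes part in axon guidance, and its paralog Islr is best known from mesenchymal cells. The Lrrtm proteins are postsynaptic organisers that bind neurexins.

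The sequences before 4 of the starts are shown because they belong to the 3 members whose values chose the genes: the mark covered both starts of Lingo1 and the start of Islr2 in all 12 libraries, and Lrrtm1 was called in every WT library and no KO library at E15.5. Each is the 250 bases before a RefSeq start (GRCm38.p6), 5′ to 3′ on the gene's strand, with every CG in capitals. Lingo1 has an upstream start (sequence at chr9:56796311-56796560, minus strand) and a downstream start (chr9:56635649-56635898, minus strand), which lie 160.662 kb apart. The Islr2 sequence lies at chr9:58204320-58204569 (minus strand) and the Lrrtm1 sequence at chr6:77242227-77242476 (plus strand).
Lingo1 upstream: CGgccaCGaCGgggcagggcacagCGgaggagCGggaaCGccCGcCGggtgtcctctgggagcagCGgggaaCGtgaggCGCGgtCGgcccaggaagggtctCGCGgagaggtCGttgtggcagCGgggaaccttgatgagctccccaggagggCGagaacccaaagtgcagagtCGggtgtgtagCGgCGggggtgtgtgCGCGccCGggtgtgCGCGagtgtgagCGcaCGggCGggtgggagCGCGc
Lingo1 downstream: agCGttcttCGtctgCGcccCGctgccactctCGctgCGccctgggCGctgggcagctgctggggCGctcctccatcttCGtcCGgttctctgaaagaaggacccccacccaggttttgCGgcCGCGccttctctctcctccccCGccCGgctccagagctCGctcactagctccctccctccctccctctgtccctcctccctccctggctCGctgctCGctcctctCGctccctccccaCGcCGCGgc
Islr2: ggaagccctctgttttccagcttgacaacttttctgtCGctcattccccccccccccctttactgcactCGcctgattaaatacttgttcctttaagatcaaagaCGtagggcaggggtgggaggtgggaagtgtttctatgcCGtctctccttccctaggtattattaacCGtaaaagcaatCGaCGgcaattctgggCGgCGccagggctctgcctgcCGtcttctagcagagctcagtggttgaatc
Lrrtm1: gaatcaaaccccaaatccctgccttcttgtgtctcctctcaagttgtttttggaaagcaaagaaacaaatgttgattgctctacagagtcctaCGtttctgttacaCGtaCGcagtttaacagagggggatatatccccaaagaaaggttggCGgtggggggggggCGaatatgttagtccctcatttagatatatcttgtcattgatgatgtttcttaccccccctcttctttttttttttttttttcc

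The upstream start of Lingo1 held 31 CG dinucleotides in its 250 bases and the downstream start 22. The Islr2 start shown held 10 and the Lrrtm1 start 5. CG reads the same on both strands, and 92.1% of the 32851 listed promoters held at least 1, with a median of 6. Of the other members, Lingo3 held 27 and 25 CG at its listed starts, both under an interval in all 12 libraries. The remaining Islr2 starts held 11 and 3, also covered in all 12 libraries. Lingo4 held 8 (covered in 3 libraries), Islr 1 (in 1 library) and Lrrtm3 6 (in 7 libraries). The listed starts of Lingo2 held 0 and 6 and those of Lrrtm4 3 and 8, with no library covering them. No start is listed for Lrrtm2. Over all promoters, 11.3% of those with at least 10 CG were covered in all 12 libraries, against 2.97% of those with fewer.

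**Figure D1:**
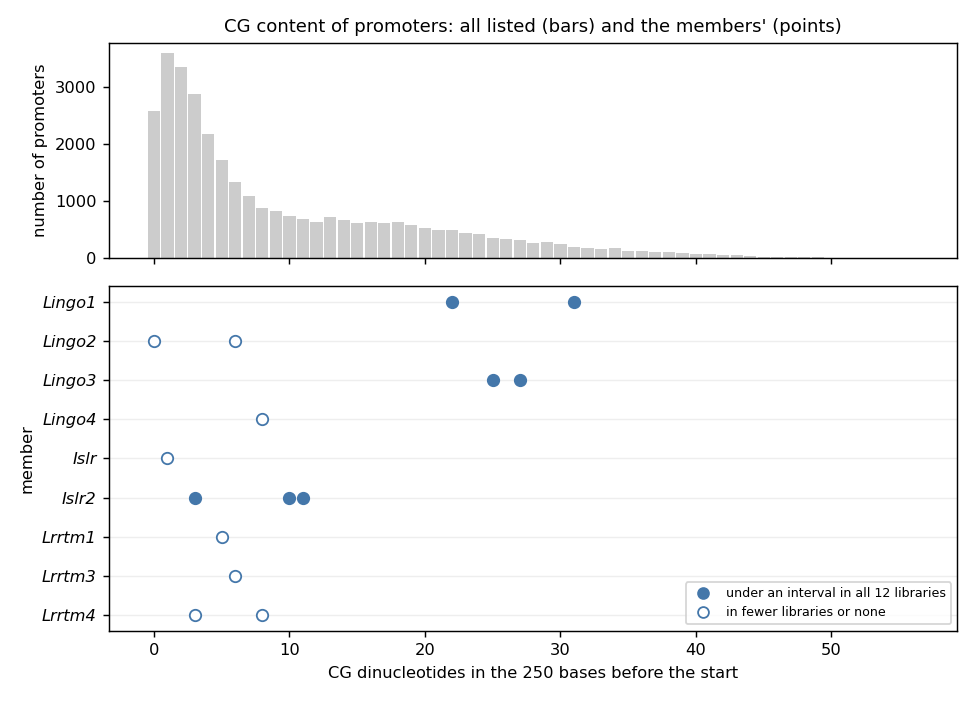
Bars give the number of all listed promoters by CG dinucleotides in the 250 bases before the start, and points give the promoters of 9 members on the same axis, filled where an interval covered the promoter in all 12 libraries. The Lingo1 and Lingo3 points lie between 22 and 31, and the open points lie at 8 or below.

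The libraries held from 5008 to 13289 intervals and from 573838 to 6846250 counts in them. Library depth, recovered from the deposited scores as the mean count per 200 bp window, averaged (± SD over 3 libraries) 0.432 ± 0.294 for WT and 0.243 ± 0.0301 for KO at E12.5. The corresponding E15.5 averages were 0.118 ± 0.0386 for WT and 0.247 ± 0.0876 for KO. Depth-scaled counts are counts divided by a library's depth and multiplied by the average depth of all 12. Ezh2 itself had an interval in 0 of 12 libraries, so these lists carry no check of its deletion. Of the markers, 5 of 6 MGE genes and 2 of 3 dorsal pallium genes had an interval in all 12 libraries, and the 3 blood and vessel genes (Hbb-bt, Pecam1, Cx3cr1) had one in none. A silencing mark does not measure expression, so the tissue label was not checked by it.

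Lingo1, Lingo2, Lingo3, Islr2 and Lrrtm3 were called in all 12 libraries. That is 5 of 10 members (50%), where 12.1% of all protein-coding autosomal genes were called in all 12. Lingo1 and Islr2 entered the list by values of these libraries, and gene length was not matched, so nothing is read from this share. Lrrtm1 was called in 9 libraries, Lingo4 in 4 and Islr in 2. Lrrtm2 and Lrrtm4 were called in none, as were 61.2% of all genes. A library called between 5 and 8 of the members.

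The mark differed widely in density between members. Per kb of called interval, Islr2 held the most, 153 ± 7.07 depth-scaled counts in WT at the earlier stage and 167 ± 8.86 at the later one (SD, n = 3). Lingo1 followed with 26.7 ± 9.98 and 46.4 ± 4.71 (SD, n = 3). Lingo2 (23.3 ± 3.6 and 22.9 ± 3.06) and Lingo3 (18 ± 1.56 and 17.4 ± 3.7) came next, then Lrrtm1 (13.8 ± 1.07 and 9.75 ± 1.45) and Lrrtm3 (12.7 ± 0.882 and 15.6 ± 7.57), each n = 3. No WT library of another member reached the Islr2 range at either stage. At E12.5 the WT libraries of Lingo1 and Lingo2 overlapped, as did those of Lingo2 and Lingo3 and those of Lrrtm1 and Lrrtm3, whereas those of Lingo3 lay above all Lrrtm1 libraries. At E15.5 those of Lingo1 lay above all Lingo2 libraries. Lrrtm3 then stood above Lrrtm1 in the order, and Lingo2 overlapped Lingo3, Lingo3 overlapped Lrrtm3 and Lrrtm3 overlapped Lrrtm1.

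**Figure D2:**
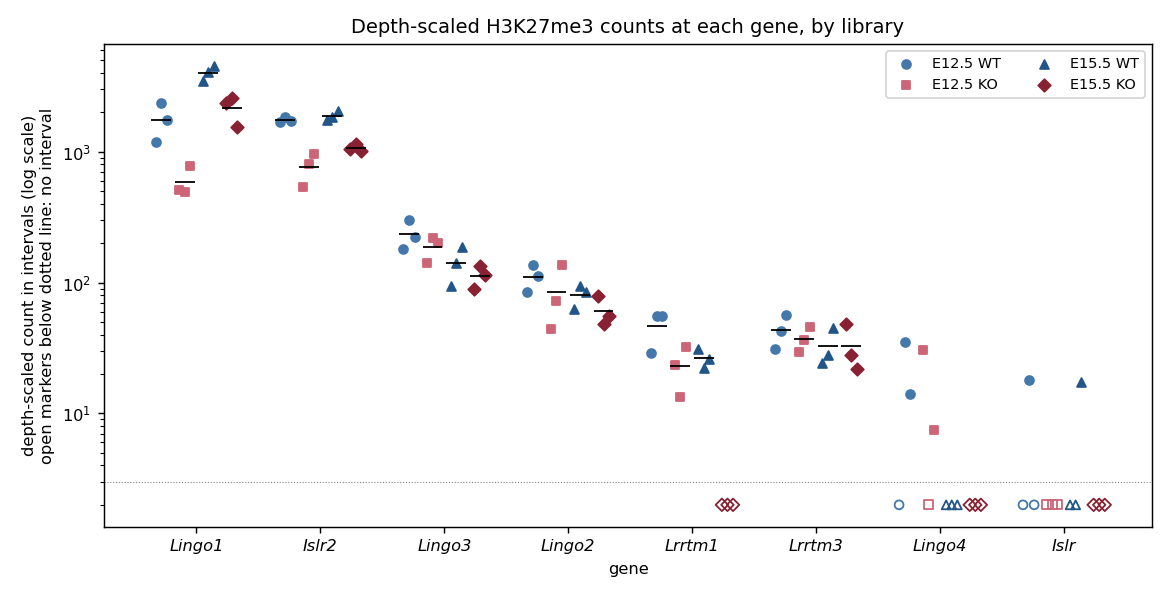
Depth-scaled count in intervals at 8 members (log axis), 1 point per library, with bars at the mean of 3 called libraries and open markers below the dotted line where no interval was called. The lowest Lingo1 or Islr2 point stands at 490, and Lrrtm1 has only open markers in E15.5 KO.

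Lingo1 (chromosome 9, 56618460 to 56796310, minus strand, 177.851 kb long) carried the broadest H3K27me3 of the members. At E12.5 its raw counts were 531, 6274 and 3248 in WT against 418, 513 and 723 in KO. Scaled for depth they were 1177, 2334 and 1756 in WT and 512, 490 and 772 in KO, so every KO library lay below every WT library. The KO mean (591 ± 157, SD, n = 3) was 0.337 of the WT mean (1756 ± 579, SD, n = 3). Intervals covered 30.2, 99.9 and 76.2 kb of the Lingo1 window in the WT libraries. In the KO libraries they covered 17.4, 15.4 and 17.0 kb, again below all WT libraries.

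Over all 7194 genes called in any E12.5 library, 18.3% had all KO counts below all WT counts and 8.99% had all KO covered lengths below. Of the 8 members called, Lingo1 and Islr2 did so in counts and Lingo1 in covered length. No member had all KO values above all WT values, which 0.25% of genes had in counts and 0.0278% in covered length. None was called in every WT library and no KO library at E12.5, which 0.598% of the genes were. The contrast chose Lingo1, so nothing is read from these counts.

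Most of the shorter covered length at E12.5 lay between the starts of Lingo1. Intervals lying there, away from both starts, covered 13.6, 66.4 and 47.4 kb in the WT libraries with raw counts of 59, 2019 and 822. The KO libraries had 0, 0 and 2.6 kb, the last a single interval with a count of 18 that began 4.95 kb from the downstream start. The WT libraries had depths of 0.117, 0.698 and 0.481 in the same order, and the KO libraries 0.212, 0.272 and 0.243. The part of depth in this difference was not tested. These zones of the gene were drawn after the values had been seen.

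Both starts of Lingo1 kept an interval in every KO library. At the upstream start the depth-scaled counts were 776, 1075 and 866 in E12.5 WT and 320, 288 and 528 in E12.5 KO, with the KO mean at 0.418 of the WT mean. At the downstream start they were 215, 326 and 313 in WT and 138, 147 and 166 in KO, a ratio of 0.528. At the 3′ end they were 55.4, 182 and 132 in WT and 53.9, 54.4 and 59.8 in KO, where the groups overlapped.

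**Figure D3:**
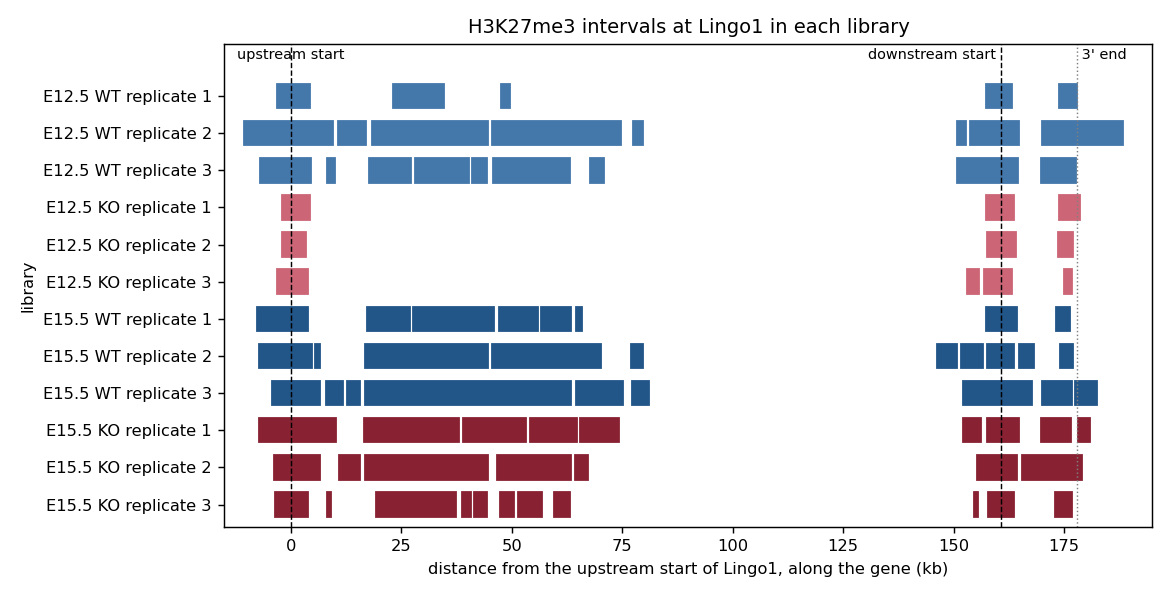
Called H3K27me3 intervals along Lingo1 in each of the 12 libraries, as distance in kb from the upstream start in the direction of transcription; dashed lines mark both starts and the dotted line the 3′ end. E12.5 KO libraries hold intervals at the starts and the 3′ end but none over most of the 160.662 kb between the starts, where the other groups hold 13.6 to 68.2 kb.

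At E15.5 the intervals between the starts of Lingo1 were present in KO as well, with lower counts. The raw counts of the gene were 997, 2014 and 2608 in WT and 1610, 2124 and 2037 in KO. Scaled for depth these were 3449, 4046 and 4521 in WT and 2343, 2558 and 1532 in KO. All 3 KO libraries lay below all WT libraries, as in 3.83% of the 6446 genes called in any E15.5 library. The KO mean (2144 ± 541, SD, n = 3) was 0.535 of the WT mean (4005 ± 537, SD, n = 3). The two-sided exact permutation p was 0.1, the smallest that 3 against 3 libraries allow. Covered length overlapped between the genotypes, at 61.6, 85.2 and 102 kb in WT and 88.7, 84.4 and 53.2 kb in KO (exact permutation p = 0.6).

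Between the starts, the E15.5 WT libraries held 45, 65.6 and 68.2 kb of interval with raw counts of 393, 855 and 1134. The E15.5 KO libraries held 59.6, 52.6 and 37.0 kb with raw counts of 573, 701 and 582. Scaled for depth, the counts were 1359, 1718 and 1966 in WT and 834, 844 and 438 in KO. The groups did not overlap in counts (ratio of means 0.42, exact permutation p = 0.1) and overlapped in length (p = 0.4, exact permutation). At the upstream start the scaled counts were 1543, 1637 and 1643 in WT and 1093, 1193 and 818 in KO, a ratio of 0.644. The downstream start and the 3′ end had ratios of 0.566 and 0.578, with all KO libraries below all WT libraries in each. No share of all genes is given for parts of a gene.

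Lingo1 density at E15.5, 46.4 ± 4.71 scaled counts per kb of interval in WT and 27.7 ± 2.5 in KO (SD, n = 3), therefore differed without overlap while the extent did not. At E12.5 the reverse held, with 26.7 ± 9.98 per kb in WT and 35.0 ± 7.76 in KO (SD, n = 3) and overlapping libraries. By library, E15.5 WT density was 51.6, 45.1 and 42.5 at depths of 0.0751, 0.129 and 0.150. E15.5 KO density was 24.9, 29.8 and 28.3 at depths of 0.179, 0.216 and 0.346. Every E15.5 KO library was deeper than every E15.5 WT library. The part of depth in the density difference was not tested, and no share of all genes is given for density.

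**Figure D4:**
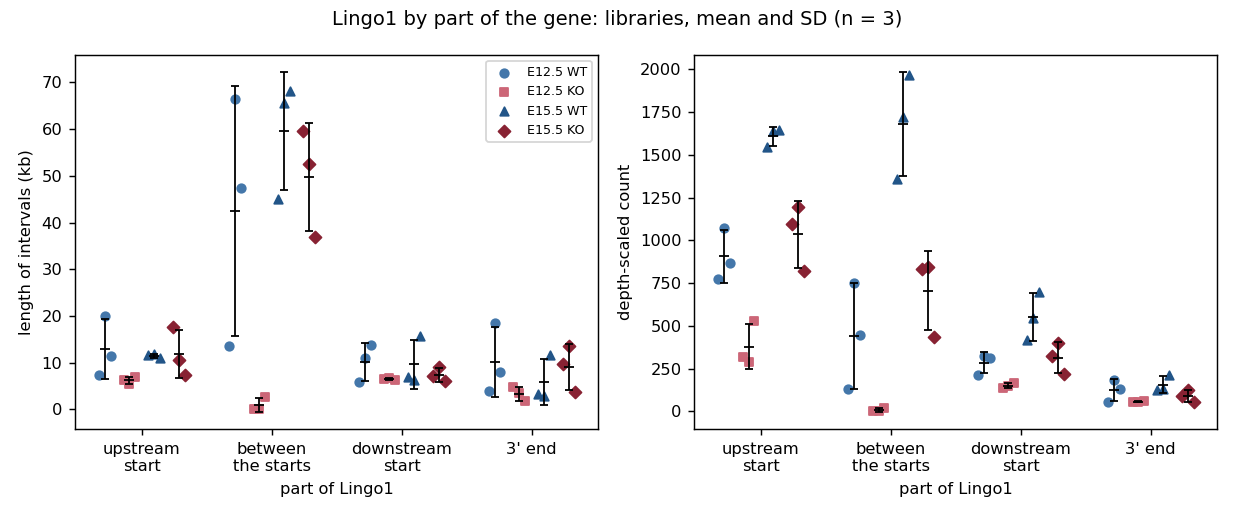
Length of called intervals (left, kb) and depth-scaled count (right) in 4 zones of Lingo1, with a point per library and the mean and SD of 3 libraries per group. Between the starts the E12.5 KO points lie between 0 and 2.6 kb, and the E15.5 KO points lie between 37.0 and 59.6 kb, among the WT points.

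A count test across all autosomal regions called in every library compared (edgeR's quasi-likelihood test with Benjamini-Hochberg adjustment) placed these values among the rest. At E15.5, 1.73% of 2781 regions were lower in KO and 3.16% higher at an adjusted p below 0.05, and the median log2 change was -0.02. Lingo1 lay in 3 of these regions and fell in each. The region between the starts (chromosome 9, 56721201 to 56779800) changed by -1.25 on the log2 scale (SE 0.20, adjusted p = 0.00209), at percentile 0.467 of all changes. The region at the upstream start (56780601 to 56805000) changed by -0.66 (SE 0.14, adjusted p = 0.0103), and the region over the downstream start and 3′ end (56613801 to 56644600) by -0.86 (SE 0.20, adjusted p = 0.0213).

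All 3 Lingo1 calls at E15.5 were lost when regions called in most rather than all libraries were tested with edgeR (adjusted p = 0.0509 between the starts, 0.0772 upstream and 0.177 downstream). The downstream call was also lost without WT replicate 3 (edgeR adjusted p = 0.0812), KO replicate 1 (0.0668) or KO replicate 3 (0.0639), with log2 changes from -1.06 to -0.64 over single libraries left out. Over all alternatives the adjusted p of the region between the starts ranged from 3.53e-11 (DESeq2) to 0.0509.

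At E12.5, 10.4% of 3243 regions were lower in KO and 0.339% higher (337 and 11 regions, against 143 and 94 with TMM factors), and the median log2 change was -0.56. The Lingo1 upstream start changed by -1.25 (SE 0.31), the downstream start by -0.89 (SE 0.37) and the 3′ end by -1.30 (SE 0.42), given with no test. The region between the starts was not called in every KO library and so lies outside this fit. With TMM factors, which centre the changes over regions, the same 3 values were -0.74, -0.36 and -0.75.

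Lingo1 counts were higher at E15.5 than at E12.5 in both genotypes, given with no test. In WT, 43.9% of 2570 regions were lower and 3.77% higher at E15.5, with a median log2 change of -0.59 (1128 and 97 regions, against 570 and 417 with TMM factors). The Lingo1 region from the upstream start into the gene changed by +1.27 (SE 0.19), at percentile 99.1, the downstream start by +1.00 (SE 0.23) and the 3′ end by +0.45 (SE 0.40). In KO, 7.61% of 3154 regions were lower and 6.18% higher, with a median of -0.08, and the changes at Lingo1 were +1.43 (SE 0.30), +1.04 (SE 0.31) and +0.68 (SE 0.38) for the upstream start, the downstream start and the 3′ end. By library, all E15.5 counts of Lingo1 lay above all E12.5 counts in WT, as in 2.03% of genes, and in KO, as in 7.58%. Covered length overlapped between the stages in WT and lay above all E12.5 values in KO, as in 6.49% of genes, from 16.6 ± 1.06 to 75.4 ± 19.4 kb (SD, n = 3). The difference of the genotype change between the stages at the upstream region was 0.89 (SE 0.28), where the median of 2368 regions was 0.61. It was not tested for Lingo1, whose E12.5 values chose it.

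Lingo2 (chromosome 4, 35696778 to 36951744, minus strand), the longest member at 1254.967 kb, was marked over a few kb at its 5′ end in every library and nowhere else, apart from 1 interval of 0.2 kb in E15.5 WT replicate 1. The 5′ interval was 2.6 to 5.4 kb wide. Depth-scaled counts were 84.2, 136 and 112 in E12.5 WT and 44.1, 72.5 and 136 in E12.5 KO. At the later stage they were 62.3, 94.4 and 84.9 in E15.5 WT and 78.6, 48.2 and 55.7 in E15.5 KO. The genotypes overlapped at both stages (exact permutation p = 0.4 at E12.5 and 0.2 at E15.5). By edgeR the log2 change in KO was -0.41 (SE 0.41, adjusted p = 0.429) at the earlier stage. The later one gave -0.35 (SE 0.31, edgeR adjusted p = 0.657). The E12.5 value passed the threshold without KO replicate 3 (log2 change -0.94, edgeR adjusted p = 0.0485). In that setting 1543 of 3247 regions passed as lower, the median log2 change was -0.80, and Lingo2 lay at percentile 37.0. With TMM factors the E12.5 value of Lingo2 was 0.062 (edgeR adjusted p = 0.912).

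Lingo3 (chromosome 10, 80832801 to 80844039, minus strand), a short gene of 11.239 kb, was covered at its starts in all 12 libraries, with the mark called as 1 interval over the gene in 3 libraries and as 2 or 3 in the other 9. Depth-scaled counts were 179, 302 and 224 in E12.5 WT, 141, 219 and 199 in E12.5 KO, 93.4, 141 and 185 in E15.5 WT and 88.8, 135 and 114 in E15.5 KO. The genotypes overlapped at both stages (exact permutation p = 0.4 at each). By edgeR the log2 change in KO was -0.34 (SE 0.37, adjusted p = 0.458) at the earlier stage and -0.34 (SE 0.26, adjusted p = 0.565) at the later one.

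From E12.5 to E15.5 the log2 change of Lingo3 counts was -0.74 in WT (SE 0.31, edgeR adjusted p = 0.0617) and -0.73 in KO (SE 0.33, edgeR adjusted p = 0.139). These values passed the threshold under some settings. In WT these included leaving out E12.5 WT replicate 1 (edgeR adjusted p = 0.016) or E15.5 WT replicate 3 (0.0352). In KO they included TMM factors (edgeR adjusted p = 0.0189), DESeq2 (0.0316) and leaving out E12.5 KO replicate 1 (edgeR, 0.0153). Over all alternatives the adjusted p (edgeR or DESeq2) reached 0.633 in WT and 0.476 in KO. The median region changed by -0.59 in WT, where 43.9% passed as lower, and by -0.08 in KO, where 7.61% did. The Lingo3 counts of the KO libraries did not overlap between the stages, as in 8.2% of genes. For Lingo2 the stage values were -0.55 in WT (SE 0.35, edgeR adjusted p = 0.191) and -0.48 in KO (SE 0.38, edgeR adjusted p = 0.471). Its covered length was lower at E15.5 in every WT library, as in 11.4% of genes. Whether these stage values differ from those of Lingo1 was not tested.

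Lingo4 (chromosome 3, 94399219 to 94404501, plus strand) was called only at E12.5, in WT replicates 2 and 3 and KO replicates 1 and 3, with raw counts of 95, 26, 25 and 7. At E15.5 it had no interval in any of the 6 libraries.

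Islr2 (chromosome 9, 58196297 to 58204319, minus strand) was covered from end to end by a single interval in every library, 9.8 to 12.6 kb wide. At E12.5 the raw counts were 757, 4933 and 3175 for WT and 437, 846 and 894 for KO. Scaled for depth these were 1677, 1835 and 1717 in WT and 535, 807 and 955 in KO. All KO counts lay below all WT counts, as in 18.3% of genes. The KO mean (766 ± 213, SD, n = 3) was 0.439 of the WT mean (1743 ± 82.3, SD, n = 3). The WT libraries differed widely in raw counts and little after scaling.

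At E15.5 the Islr2 counts were 501, 924 and 1189 in WT and 717, 949 and 1348 in KO. Scaled, they were 1733, 1856 and 2061 in WT and 1043, 1143 and 1014 in KO, with a ratio of means of 0.566. All KO counts again lay below all WT counts, as in 3.83% of genes. Covered length was 11.1 ± 0.611 kb in WT and 10.2 ± 0.4 kb in KO at E12.5, and 11.2 ± 1.26 kb in WT and 11.2 ± 0.4 kb in KO at E15.5 (SD, n = 3). The genotypes thus overlapped in the extent of the mark at Islr2 and not in its counts. The region's log2 change in KO was -1.19 (SE 0.27) at E12.5 and -0.82 (SE 0.11) at E15.5, at percentiles 7.59 and 2.23 of all regions. The medians over all regions were -0.56 and -0.02. With TMM factors the E12.5 value of Islr2 was -0.69, and with DESeq2 it was -0.64. Between stages the Islr2 change was +0.11 (SE 0.11) in WT and +0.48 (SE 0.29) in KO, beside medians of -0.59 and -0.08. In KO every E15.5 library lay above every E12.5 library in counts, as in 7.58% of genes, and in covered length, as in 6.49%. The same held for Lingo1. All Islr2 values are descriptions, with no test. Islr2 was chosen by its counts, so nothing is read from these shares.

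Islr (chromosome 9, 58156246 to 58159236, minus strand), its neighbour and paralog, was called in 2 libraries, E12.5 WT replicate 2 with a raw count of 48 and E15.5 WT replicate 3 with a raw count of 10. The latter interval did not reach the Islr start. Stra6 lies in the same window.

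Lrrtm1 (chromosome 6, 77229210 to 77259915, plus strand) held 1 small interval within the gene, 1.4 to 4.4 kb wide, beginning 11.4 to 14.4 kb from the 5′ end of the gene, near the listed start, whose upstream 250 bases it reached in 2 of 9 libraries. Its raw counts were 13, 149 and 102 in E12.5 WT and 19, 14 and 30 in E12.5 KO. Depth-scaled, these were 28.8, 55.4 and 55.1 in WT and 23.3, 13.4 and 32.1 in KO, where the groups overlapped (exact permutation p = 0.2). The log2 change at E12.5 was -1.08 (SE 0.40, edgeR adjusted p = 0.0544), outside the threshold. It passed without WT replicate 1 (edgeR adjusted p = 0.0305) or KO replicate 3 (0.00721). With DESeq2 the adjusted p was 0.485, and the extremes over the alternatives were 0.00721 and 0.485. Leaving out WT replicate 1 gave 467 of 3587 regions as lower, and leaving out KO replicate 3 gave 1543 of 3247. Lrrtm1 lay at percentiles 8.25 and 8.13 of all changes there.

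At E15.5 Lrrtm1 had counts of 9, 11 and 15 in the WT libraries, 31.1, 22.1 and 26.0 after scaling, and no interval in any KO library. Of 6446 genes called at E15.5, 0.0465% were called in every WT library and no KO library, and those 3 genes are Chrna1, Ctnna2 and Lrrtm1. Ctnna2, which encodes an alpha-catenin, contains Lrrtm1 and shares its interval, so the interval cannot be assigned to either. In the same WT libraries, intervals of 2 to 4 kb held at least 6, 8 and 9 raw counts, with medians of 13, 14 and 15. The Lrrtm1 count lay between the smallest count and the median in WT replicates 1 and 2, and at the median in replicate 3. In the KO libraries, which were deeper, such intervals held at least 14.6, 14.5 and 7.52 scaled counts, with medians of 23.3, 24.1 and 24.1. The part of the calling limit in the missing KO calls was not tested. An uncalled gene has no count in these lists, so no fold is given. Of the 7 members called at E15.5, Lingo1, Islr2 and Lrrtm1 had all KO counts below all WT counts, as had 3.83% of genes. Lrrtm1 alone did so in covered length, as had 0.295%. Islr2 and Lrrtm1 were chosen by their E15.5 values, so nothing is read from their places beside any of these shares. No member showed the opposite order, which 6.81% of genes showed in counts and 6.13% in covered length, and none was called in every KO library and no WT library, as were 1.33%. Lrrtm1 was also called in every E12.5 KO library and in no E15.5 KO library, as were 0.914% of genes. Its covered length was lower at E15.5 in every KO library, as in 3.1%. The missing E15.5 KO calls chose Lrrtm1, so nothing is read from these shares either. No member was called in every E15.5 KO library and no E12.5 KO library (0.546% of genes). In WT no member was called in every library of 1 stage and none of the other, as were 2.96% of genes for E12.5 alone and 0.0687% for E15.5 alone.

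Lrrtm3 (chromosome 10, 63928497 to 64090255, minus strand), which lies inside Ctnna3, was called near its 5′ end in all 12 libraries at low counts. Depth-scaled counts were 31.0, 42.4 and 56.8 in E12.5 WT, 29.4, 36.3 and 45.9 in E12.5 KO, 24.2, 28.1 and 45.1 in E15.5 WT and 48.0, 27.7 and 21.8 in E15.5 KO. The genotypes overlapped at both stages, with log2 changes of -0.26 (SE 0.40, edgeR adjusted p = 0.608) and -0.09 (SE 0.39, edgeR adjusted p = 0.945). Between stages the values were -0.42 in WT (SE 0.33, edgeR adjusted p = 0.293) and -0.23 in KO (SE 0.42, edgeR adjusted p = 0.804). Lrrtm2 (chromosome 18, 35209003 to 35215024, inside Ctnna1) and Lrrtm4 (chromosome 6, 80018858 to 80810162) had no interval in any library.

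For the members tested, the difference of the genotype change between the stages did not pass the threshold, at 0.07 for Lingo2 (SE 0.50, edgeR adjusted p = 0.917), 0.01 for Lingo3 (SE 0.44, edgeR adjusted p = 0.986) and 0.18 for Lrrtm3 (SE 0.53, edgeR adjusted p = 0.8). Over all 2368 regions the E15.5 change was higher than the E12.5 change in 6.67% and lower in 0.0%.

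**Figure D5:**
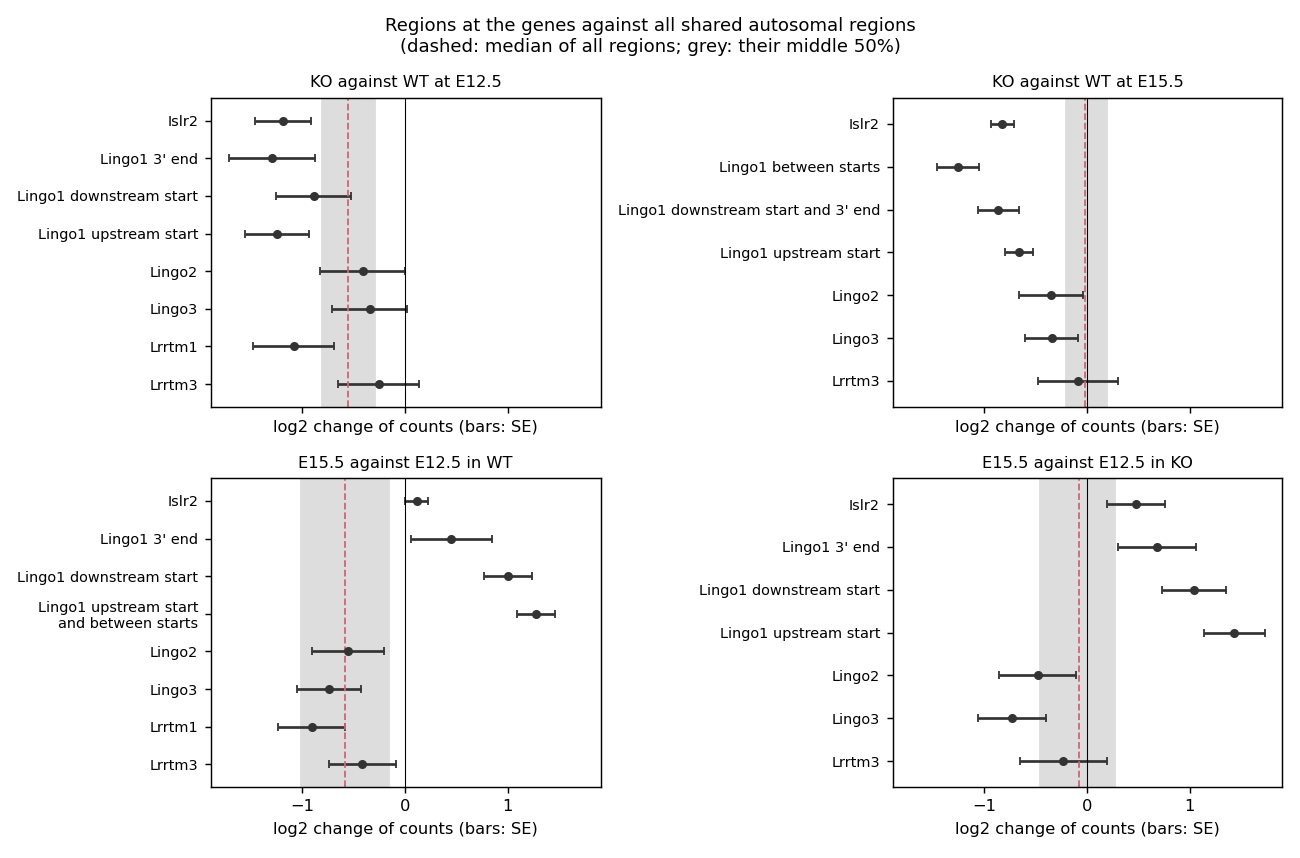
Log2 change of counts with SE for the members' regions in 4 contrasts, with the median of all shared autosomal regions (dashed) and their middle 50% (grey). Islr2 and Lingo1 lie left of the grey band in KO against WT at E15.5 and right of it between the stages. Lingo2 and Lingo3 also lie left of it in KO against WT at E15.5, as does Lingo3 between the stages in KO. Elsewhere Lingo2, Lingo3 and Lrrtm3 lie within or near it.

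Genes related to the members by structure or binding were tested only where a region was called in every library compared. Many of these genes had no such region and so no test. Of 33 other neuronal leucine-rich repeat genes, 7 (Flrt1, Flrt2, Lrfn5, Elfn1, Elfn2, Lrrn2 and Lrrn4) were called in all 12 libraries and 9 in none. Over all protein-coding autosomal genes, 12.1% were called in all 12 and 61.2% in none. Of 14 partners of the members, 8 were called in all 12, among them Rtn4r, the Nogo receptor that binds Lingo1, its co-receptors Ngfr and Tnfrsf19, the Islr2 partner Ret, and the neurexin gene Nrxn2. None of these genes was called in every WT library and no KO library at either stage, or the reverse. Of all genes called at a stage, 0.598% at E12.5 and 0.0465% at E15.5 were called in WT alone in this way. The reverse held for 0.0% and 1.33%.

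In KO at E12.5, 4 of the 27 regions at these related genes passed as lower and none as higher. Over all regions 10.4% passed as lower and 0.339% as higher. The median log2 change was -0.45 beside -0.56 over all regions. Values at these related genes were kept for the main setting alone, so how they move with the settings is not given. The 4 were at Tnfrsf19 (log2 change -1.52, edgeR adjusted p = 4.47e-05), Lrrn2 (-1.39, 0.0166), Lrfn3 (-1.22, 0.0441) and Ngfr (-0.82, 0.0295). In the region at Lrfn3 only 1 WT and 1 KO library had an interval that reached the gene's window, so its counts in the other libraries lie outside that window. At E15.5 none of 17 regions passed in either direction, where 1.73% of all regions were lower and 3.16% higher, with a median of -0.06 beside -0.02. The change at Tnfrsf19 differed between the stages by 1.27 (SE 0.31, edgeR adjusted p = 0.00329). The median of this difference over all 2368 regions was 0.61, and 6.67% of them passed as higher.

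Across the 12 libraries, the genes whose log2 depth-scaled counts ran most closely with Lingo1 among 5787 genes were Prmt8 (Pearson r = 0.98), Ccnd2 (0.974), Six3 (0.96), Dusp5 (0.96) and Sema3f (0.959). Those closest to Islr2 were Nkx6-2 (0.966), Ak8 (0.951), Inpp5a (0.95), Cfap77 (0.949) and Zfhx3 (0.943). These are descriptions over 12 libraries that share stage, genotype and depth, with no test. The windows of Nkx6-2 and Inpp5a overlap on chromosome 7, so intervals in the overlap count for both genes.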

How the data were processed

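Bulk CUT&Tag for H3K27me3 was read in 12 libraries, grouped by genotype and stage from the labels; the 6 heterozygous samples of the 18 were not analysed here. Per the submitters' processing notes the tools were cutadapt, Bowtie2, SAMtools, Picard, deepTools and SICER on GRCm38/mm10, with versions and settings not given in the sources used here. Each library has its own deposited list. The count of each interval, as the authors deposited it, is whole and not scaled, and only called intervals have one. The deposited score of each interval is not compared between libraries. In intervals of 1 window of 200 bp it equalled the negative natural log of a Poisson probability (largest misfit 0.0036), which gave the mean count per window used as depth; that depth is proportional to total reads is an assumption.

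Gene positions are RefSeq's (GRCm38.p6). Intervals overlapping a gene body with 2500 bp on either side were counted. Counts of merged autosomal regions called in every library compared were tested with edgeR 4.0.16 in R 4.3.3 (quasi-likelihood, library sizes proportional to depth, Benjamini-Hochberg over all regions, threshold 0.05), tested beforehand on simulated data. Alternatives were TMM factors, DESeq2 1.42.0, regions called in most libraries (an uncalled library counted as 0), a mean count of at least 50, a replicate block, the 5008 highest-scoring intervals of each library, the gene body alone, flanks of 10000 bp, at least 50% of an interval inside the window, counts in proportion to the part inside, and leaving out each replicate. Single values were compared by two-sided exact permutation over 20 assignments (smallest p 0.1). Over the 22 such tests of members run, every Benjamini-Hochberg adjusted value was 1.0; 10 further tests of Lingo1 zones gave no p below 0.1.

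The members and lists were chosen with earlier results of these data known. The genes named are the 10 members, the 5 genes with the highest Pearson r (log2 of the depth-scaled count plus 1; genes called in at least 3 libraries) for Lingo1 and Islr2, and related genes that passed the region test or changed call between genotypes; the marker genes and the genes called in all libraries were named for completeness. Some genes of these lists or near members are not reported here. Other software was Python 3.11.15, numpy 2.4.6, pandas 2.3.3, scipy 1.17.1 and matplotlib 3.10.9.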

Additional observations from a re-analysis of the deposited data

How the results depend on the processing

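The numbers of changed regions moved with the settings. At E12.5, 348 regions changed with depth scaling, and 84 with regions called in most libraries, 640 with the replicate block and 91 to 1564 when a library was left out. At E15.5 the number was 136, and 47 with regions called in most libraries and 77 to 162 with a library left out. Between stages in WT it was 1225, and 779 and 759 to 1720 under the same settings. In KO it was 435, and 815 with TMM factors, 754 with DESeq2, 277 with the replicate block and 241 to 689 with a library left out. For the difference between stages it was 158, and 51 with TMM factors, 61 with DESeq2, 242 with the replicate block and 63 to 1070 with a library left out. With TMM factors the E12.5 split was 143 lower and 94 higher instead of 337 and 11. The members called in every WT and no KO library stayed at 0 at E12.5 and 1 at E15.5 under every alternative run. Signs turned only for changes that had not passed the threshold in the main setting. At E12.5 they turned with TMM factors and DESeq2 for Lrrtm3 (0.26 and 0.33), Lingo3 (0.20 and 0.27) and Lingo2 (0.062 and 0.12). They also turned for Lrrtm3 at E15.5 without WT replicate 3 (0.25), KO replicate 2 (0.0066) or KO replicate 3 (0.15), with -0.46 as the lowest value, and between stages in WT for Lrrtm3 with TMM factors (0.080) and DESeq2 (0.15) and for Lingo2 with DESeq2 (0.044). In KO between stages they turned for Lrrtm3 without E15.5 KO replicate 3 (0.0114, lowest value -0.60) and Lingo2 without E12.5 KO replicate 3 (0.0377, lowest value -0.78). The median change over all regions at E12.5 was -0.56 with depth scaling, -0.039 with TMM factors and 0.023 with DESeq2. The cause of the turned signs was not tested. Keeping the 5008 best-scored intervals of each library, an alternative chosen after seeing the data, gave a KO minus WT difference of -36.1 kb between the Lingo1 starts at E12.5, against -41.6 kb with all intervals. Replicate numbers did not pair the samples: the correlations of same-numbered libraries were 0.231, 0.056 and 0.082 at E12.5 and -0.0993, -0.0146 and -0.0778 at E15.5. Between stages they were 0.271, 0.089 and 0.135 in WT and 0.0602, -0.0181 and 0.124 in KO. In no comparison were all 3 over 0.1 or did every library correlate best with its own number. With the replicate block, Lingo3 between stages in WT passed the threshold (-0.75, edgeR adjusted p = 0.0107). Depth limits what can be called: a gene without an interval has no count.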
